A study of Bos taurus with 15 samples.

Results

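In oocytes from dominant follicles (DF), 192 genes had their lowest mean level 2 h before ovulation. They were taken from the 1741 named genes, of 21218 in the count table, that the study listed as different between oocytes at the end of growth and DF oocytes. A gene was kept where its mean of log2(CPM+1), with CPM as counts scaled to 1e6 per library by the column sum, was at least 3 at 24 h before ovulation, was at least 1.5 lower at 2 h before ovulation, and was also lower at 2 h before ovulation than after oestrus detection. These limits were met by 219 named genes, of which 27 were set aside by a fixed list of symbol prefixes and symbols, which covers ribosomal, proteasomal, ubiquitin, splicing, RNA helicase, cell cycle, glycolytic and zinc finger genes. The genes were thus chosen by their measured levels at all 3 time points, and the differences between these time points are given as a description. The test counts given for them further on were shaped by the same choice, and nothing is read from them.

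The oocyte of a dominant follicle is the germ cell that will ovulate. It is close to silent in transcription when fully grown, and lives on transcripts stored during growth. After the preovulatory gonadotrophin signal it resumes meiosis, and stored transcripts are then adenylated, deadenylated, translated or degraded in a programmed order. The libraries were primed on the poly(A) tail, so that a lower count can come from fewer molecules or from molecules with a shorter tail, and these cannot be told apart here.

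Single-cell RNA sequencing was available for 15 DF oocytes of crossbred nulliparous beef heifers, each from a different animal and taken without ovarian stimulation. All heifers were synchronised with a GnRH analogue, a progesterone-releasing device and prostaglandin. T1 is 24 h before ovulation (6 oocytes), T2 is 19-23 h after oestrus detection (4 oocytes) and T3 is 2 h before ovulation (5 oocytes). A subgroup of heifers received a second dose of the GnRH analogue after removal of the device. The methods place it beside the animals of 2 h before ovulation, but do not settle whether any T2 animal also received it, so that treatment and time cannot be told apart between T3 and T1 and may not be between T3 and T2. The T2 titles in the labels read as hours before ovulation, whereas the other labels and the methods give hours after oestrus detection, which was followed. The oocytes came from 2 earlier animal trials, and which oocyte came from which trial was not known here. The study left out 4 oocytes for low counts inside genes, which were T1.4 and, of the T3 oocytes, T3.1, T3.3 and T3.5. The 11 others, of which 5 are T1, 4 are T2 and 2 are T3, were used by the rule, and ranges and means for T1, T2 and T3 are over these 11 unless a left-out oocyte is named.

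Total counts were between 824854 and 4894970 in these 11 oocytes and between 175263 and 2874041 in the 4 left out. The T3 oocytes T3.2 and T3.4 held 2834737 and 2617518 counts, within the range of T1. Of 20 oocyte markers, 5 could be named, and all 5 had counts in each of the 11 oocytes. Of 24 cumulus and granulosa markers only STAR and CD44 could be named, so that carry-over of cumulus cells was hardly testable. Their summed level was 80.8 to 386 CPM at T1, 192 to 365 CPM at T2, and 111 and 56.9 CPM in T3.2 and T3.4, and its part in the results was not tested. No erythrocyte marker and 3 of 20 leukocyte markers could be named.

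At T3 the 192 genes sat far below both other time points, while T1 and T2 were close to each other on the log2(CPM+1) scale. The median over the genes of T3 minus T1 was -2.29 (range -4.84 to -1.51) on the log2(CPM+1) scale, and that of T3 minus T2 was -2.33 (-4.75 to -0.48). The median of T2 minus T1 was -0.06 (-1.71 to 2.14). Over all 6794 genes of the count table with the same T1 minimum, these medians were -0.23, -0.50 and 0.15, and 15.1% of them met the same limits on values. Over the 816 other named genes with that minimum they were -0.02, -0.37 and 0.22. The median T1 mean was 4.36 for the 192 genes, 5.41 for all genes with the minimum and 5.97 for the other named genes. No comparison with these sets is thus matched for level. With TMM, RLE or upper-quartile factors the median of T3 minus T1 over all genes was -0.01, -0.06 or -0.03, and that over the 192 genes was -2.14, -2.19 or -2.15. In the edgeR fit described further on, the median log2 fold change of T2 minus T1 was -0.51 over the 192 genes. It was -0.20 over all 10198 genes tested.

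The level of the genes in each oocyte shows where this difference lay. The median of log2(CPM+1) over the 192 genes was 3.58, 3.99, 5.28, 4.96 and 4.76 in T1.1, T1.2, T1.3, T1.5 and T1.6. It was 4.36, 4.32, 4.35 and 4.48 in T2.1 to T2.4, and 2.29 and 1.34 in T3.2 and T3.4. Both T3 oocytes were below all 9 others, T2 hardly varied, and T1.1 and T1.2 were the lowest of T1. T1.1 was the lowest T1 oocyte for 84 of the genes and T1.2 for 68. The genes took 0.879%, 0.512%, 1.199%, 0.884% and 1.02% of all counts in the T1 oocytes, 0.856% to 0.889% in T2, and 0.291% and 0.183% in T3.2 and T3.4. In the oocytes left out they took 0.398% in T1.4 and 0.646%, 0.750% and 0.39997% in T3.1, T3.3 and T3.5, so that no left-out T3 oocyte was below T1.4. The 95% Wilson intervals of these shares reached at most 0.0217 percentage points to either side in the 11 oocytes and 0.0324 over all 15. The interval of T3.5, 0.371% to 0.431%, held the share of T1.4. Such intervals cover counting error only, since reads without molecular identifiers are not independent molecules.

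**Figure D1:**
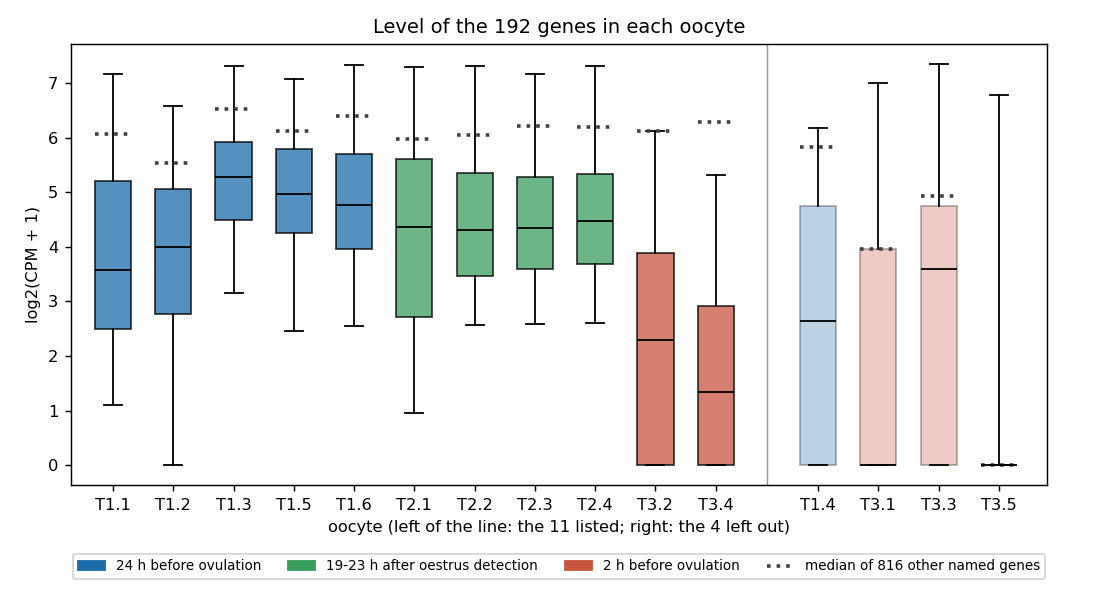
Levels of the 192 genes as log2(CPM+1) on the y axis for each oocyte on the x axis. Boxes span the quartiles with the median as a line, whiskers run from the 5th to the 95th percentile, and dotted lines give the median of the 816 other named genes in the same oocyte. The medians of T3.2 and T3.4 (2.29 and 1.34) lie below those of T1 and T2, although the box of T3.2 overlaps with those of T1.1, T1.2 and all T2 oocytes and the box of T3.4 with those of T1.1, T1.2 and T2.1, while their dotted lines stay at 6.12 and 6.28. The 4 oocytes left out are paler, to the right of the line.

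In the T3 oocytes, the shares taken by oxidative phosphorylation subunits and by the most abundant genes lay above T2 and within the range of T1. Subunits of oxidative phosphorylation took 2.65% and 4.65% of the counts in T3.2 and T3.4, against 0.913% to 4.75% in T1 and 0.214% to 0.621% in T2. The 10 most abundant genes of each oocyte took 12.8% and 12.3% there, against 4.63% to 17.1% in T1 and 4.85% to 5.91% in T2. T1.2, a T1 oocyte with low levels of the 192 genes, had the highest value of T1 on both measures. T1.5, with 3.38% and 13.0%, had high levels of the 192 genes. Genes with more than 1 count numbered 9046 in T3.2 and 8257 in T3.4, against 8337 to 10898 in T1 and 8950 to 10499 in T2. T3.4 was thus below all T1 and T2 oocytes in this number. The part of these measures in the result was not tested.

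Detection is given as a description only. The rule kept genes with a minimum level at T1 and a low mean in T3.2 and T3.4, which by itself favours missing counts at T3. At T3, 24 of the 192 genes had no count in either oocyte, against 1.31% of all genes with the T1 minimum, 74 had none in 1 of them, and 94 had counts in both. A total of 159 genes had counts in all 9 oocytes of T1 and T2. Thinned to 175263 counts, the shallowest library of the 15, T3.2 and T3.4 had counts for 52.1% and 37.5% of the 192 genes, whereas T1 had counts for 76.0% to 96.4% and T2 for 78.1% to 91.7%. Of the oocytes left out, T1.4 had counts for 50.0% at that depth, below T3.2, and T3.1, T3.3 and T3.5 for 41.1%, 68.8% and 20.3%. For the other named genes the thinned shares were 93.4% and 91.7% in T3.2 and T3.4, 76.3% in T1.4, and 59.7%, 78.6% and 44.2% in T3.1, T3.3 and T3.5. These genes had a higher level at T1 (median T1 mean 5.97 against 4.36), so that the shares are not matched for level. A count of 0 in T3.2 or T3.4 allows a level of up to 1.06 or 1.15 CPM (3 counts per library). With only the 24 genes without a count in either oocyte set at that limit, the median of T3 minus T1 was -2.19. The 74 genes without a count in 1 oocyte were left at 0 there, so that -2.19 is no bound for them. The 24 genes were at least 8.2-fold to at least 41.7-fold lower in T3 than in T1.

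The 2 oocytes of T3 did not share the same set of low genes throughout. T3.2 was 1.5 or more below the T1 mean for 112 of the genes and T3.4 for 153. Both were for 73 genes, against 5.02% of all genes with the T1 minimum. T3.2 alone was for 39 genes and T3.4 alone for 80. T3.4 was the lower of the pair for 111 genes and the higher for 57. The median distance to the T1 mean was -1.93 in T3.2 and -3.11 in T3.4. T3.2 was above the T1 mean for 16 genes and T3.4 for 5. Over the genes, the median SD was 1.16 at T1 (n = 5), 0.68 at T2 (n = 4) and 1.34 at T3 (n = 2), where all genes with the T1 minimum had 1.02, 0.54 and 0.65.

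**Figure D2:**
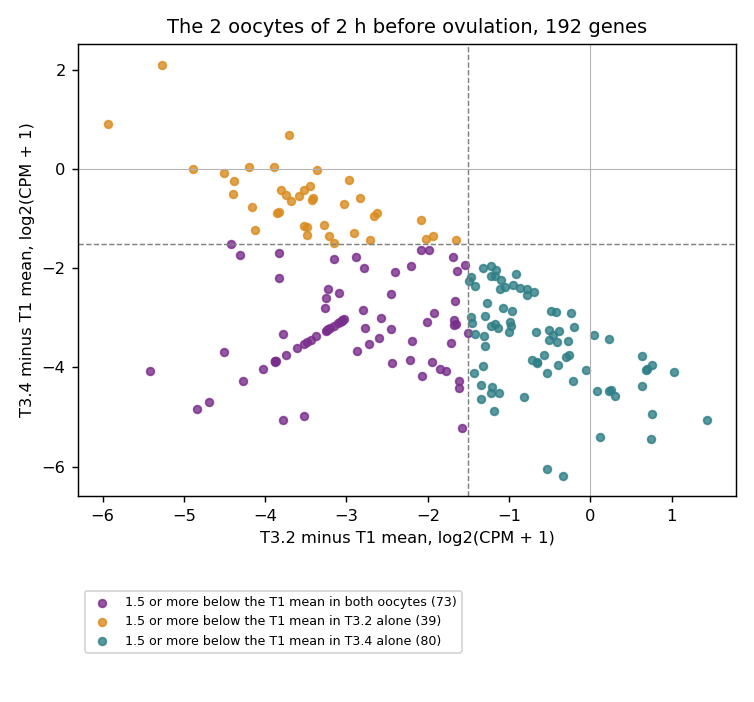
Difference from the T1 mean, in log2(CPM+1), for T3.2 on the x axis and T3.4 on the y axis, with 1 point for each of the 192 genes. Dashed lines mark the limit of 1.5, and colours separate the 73 genes low in both oocytes from the 39 low in T3.2 alone and the 80 low in T3.4 alone.

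Both T3 oocytes lay below all 9 oocytes of T1 and T2 for 61 of the 192 genes, where this held for 5.93% of all genes with the T1 minimum. Both lay below all 5 T1 oocytes for 68 genes (7.33% of all) and below all 4 T2 oocytes for 129 (28.6% of all). Without T1.1 the first count was 83, without T1.2 it was 85, without T3.2 it was 119 and without T3.4 it was 92, and the matching shares of all genes were 7.83%, 10.7%, 21.1% and 13.7%. The rule used these oocytes, and nothing is read from the counts. T2 was higher than T1 for 90 genes and lower for 102, and 56.7% of all genes with the T1 minimum were higher at T2. The rule favours genes that are high at T1, so nothing is read from this difference either. The 2 time points were within 1 of each other for 153 of the genes.

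The quasi-likelihood F-test of edgeR, with Benjamini-Hochberg adjustment over 10198 genes, called none of the 192 genes at an adjusted p of 0.05 and a log2 fold change of 1.5. It called 0 genes in all (0%) in each comparison of time points. The rule chose the genes on the same 11 oocytes, which by itself lifts the counts of lower genes at T3 over the share of all genes, so that the counts which follow are a description. At an unadjusted p under 0.05, 80 of the genes were lower at T3 than at T1 (7.47% of all genes tested were), and 62 were lower at T3 than at T2 (8.24% of all). The likelihood ratio test of edgeR called 26 of the genes lower against T1 (1.24% of all tested) and 33 lower against T2 (2.67%), and the Wald test of DESeq2 called 52 (2.38%) and 50 (3.44%). Between T2 and T1, 3 of the genes passed an unadjusted p of 0.05 (12.2% of all tested did). These were GAPDH, DNAJC21 and MXD1, a partner of MAX that opposes MYC, with T2 minus T1 of -1.46, 1.49 and 1.22 on the log2(CPM+1) scale, and they are named here after their values were seen. The likelihood ratio test called 0 of the 192 genes between T2 and T1 (3.54% of all tested), and DESeq2 called GAPDH, lower at T2 (3.27% of all tested were called, 3.11% as lower).

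By function, 123 of the 192 genes fell in 17 lists drawn up over all named symbols, and 69 in none. Of the 1008 named symbols that passed the T1 minimum and the symbol filter, 19.0% were in the 192. The share was 31.8% for ribosome biogenesis (7 of 22), 31.6% for translation factors and tRNA enzymes (6 of 19), 29.6% for solute carriers and channels (8 of 27), 28.9% for RNA polymerase II transcription and pre-mRNA processing (13 of 45), 28.6% for lipid and sterol metabolism (6 of 21) and 26.7% for the ubiquitin and SUMO pathway (12 of 45). It was 4.0% for mRNA decay and storage (1 of 25), 5.5% for centrosome and spindle (3 of 55), 9.0% for mitochondrial genes (6 of 67), 10.0% for kinase, GTPase and receptor signalling (8 of 80) and 12.5% for germline and oocyte genes (3 of 24). The lists are small, they were not tested, and no list is set apart by these shares.

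**Figure D3:**
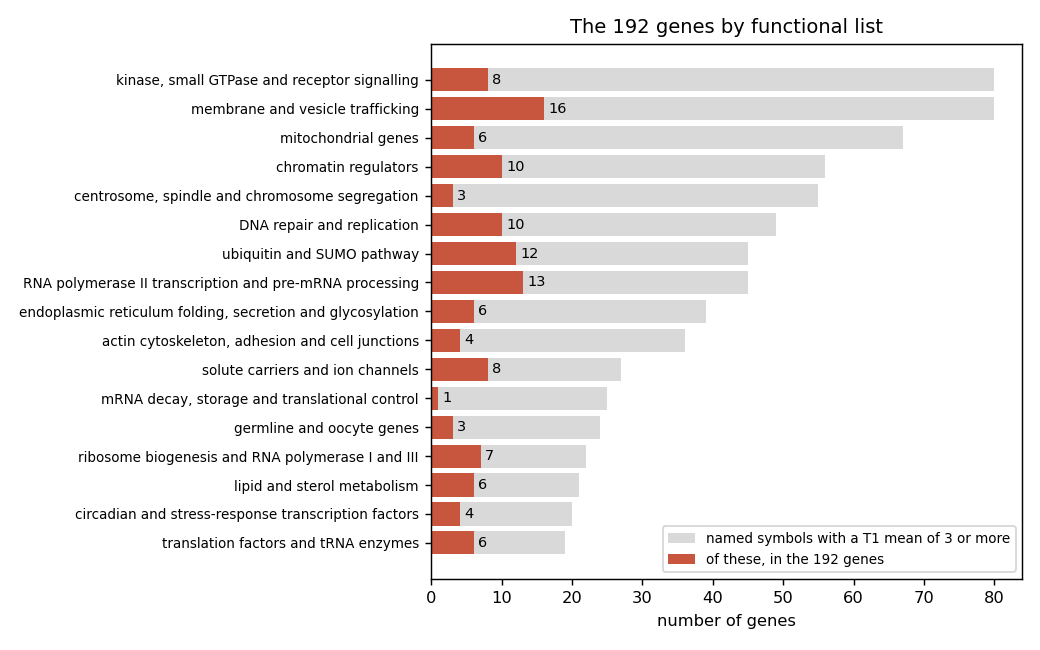
Number of genes on the x axis for each of 17 functional lists on the y axis. Grey bars give the named symbols with a T1 mean of 3 or more, and red bars with their number those among the 192 genes, from 16 of 80 for membrane and vesicle trafficking to 1 of 25 for mRNA decay and storage.

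The largest differences from T1 came from genes that were nearly absent at T3. In what follows, T1 values are CPM in T1.1, T1.2, T1.3, T1.5 and T1.6, in that order, T2 values are CPM in T2.1 to T2.4, T3 values are CPM in T3.2 and T3.4, and means ± SD are on the log2(CPM+1) scale. ENDOG (ENSBTAG00000012484), a mitochondrial endonuclease, had 19.6, 19.0, 40.8, 47.8 and 21.8 CPM at T1 and 16.8, 18.9, 20.7 and 21.8 CPM at T2, and no count in either T3 oocyte. Its T1 level was 4.84 ± 0.61 (SD, n = 5) and its T2 level 4.36 ± 0.16 (n = 4), and T3 was at least 27.0-fold lower than T1. All 9 oocytes of T1 and T2 held it at a similar level, apart from the T3 pair.

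TMEM106C (ENSBTAG00000000454), a transmembrane protein gene, had 5.47, 32.9, 51.8, 29.8 and 31.5 CPM at T1 and 21.5, 18.2, 19.4 and 13.0 CPM at T2, and no count at T3, at least 27.5-fold lower than T1. KAT8 (ENSBTAG00000010511), the acetyltransferase of histone H4 lysine residues, had 3.17, 18.1, 41.2, 42.9 and 17.0 CPM at T1, 10.3, 29.5, 33.9 and 25.5 CPM at T2 and no count at T3, at least 22.2-fold lower. TRMT1 (ENSBTAG00000019325), a tRNA methyltransferase, had 10.7, 6.14, 31.0, 12.5 and 18.2 CPM at T1, 2.80, 10.5, 13.2 and 26.4 CPM at T2 and no count at T3, at least 14.2-fold lower. In these 3 genes the T3 pair was below each T1 and T2 oocyte. The nearest oocyte was T1.1 for TMEM106C and KAT8 and T2.1 for TRMT1.

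GOT1 and LIN9 also had no count at T3, but overlapped with T1, since a T1 oocyte had none either. GOT1 (ENSBTAG00000011960), the cytosolic aspartate aminotransferase, had 22.5, 0, 34.4, 22.1 and 35.2 CPM at T1 and 18.7, 8.07, 11.9 and 19.9 CPM at T2. LIN9 (ENSBTAG00000033267), a subunit of the DREAM and MuvB complexes that control cell cycle genes, had 115, 49.4, 9.07, 0 and 18.2 CPM at T1 and 25.2, 20.7, 40.1 and 21.3 CPM at T2. Its T1 spread was wide, at 4.02 ± 2.62, against 4.75 ± 0.43 at T2.

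The other genes among the 10 largest differences had a few counts at T3. EMG1 (ENSBTAG00000013126), a methyltransferase of ribosomal RNA, had 22.5, 56.2, 59.7, 48.6 and 33.9 CPM at T1, 7.47, 19.3, 22.6 and 36.2 CPM at T2, and 0 and 1.53 CPM at T3, a difference of -4.75 from T1. CMTR2 (ENSBTAG00000047367), a methyltransferase of the mRNA cap, had 76.3, 7.98, 17.0, 39.0 and 78.8 CPM at T1, 48.5, 43.1, 33.2 and 30.1 CPM at T2, and 1.41 and 0 CPM at T3, a difference of -4.42. PIK3CB (ENSBTAG00000006909), a catalytic subunit of phosphoinositide 3-kinase, had 111, 33.5, 40.8, 49.6 and 65.5 CPM at T1, 82.2, 83.8, 26.3 and 95.1 CPM at T2, and 3.88 and 0.76 CPM at T3, a difference of -4.25. In each of the 3 both T3 oocytes were below all others. FERMT3 (ENSBTAG00000045862), an adaptor of integrins that is known from blood cells, had 13.0, 32.2, 25.3, 50.9 and 8.49 CPM at T1, 87.8, 23.1, 20.1 and 25.5 CPM at T2, and 0 and 0.76 CPM at T3, a difference of -4.09, again without overlap.

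Of the germline and oocyte list, 3 of 24 symbols with the T1 minimum were among the 192, beside a list median of T3 minus T1 of -0.01. NLRP13, of the NLRP family with many oocyte members, had 6.05, 11.4, 57.8, 34.1 and 42.4 CPM at T1, 20.5, 23.1, 23.2 and 37.6 CPM at T2, and 11.3 and 2.29 CPM at T3. ZGLP1, a GATA-like factor that acts in the entry of the female germline into oogenesis, had 4.61, 45.1, 44.6, 62.1 and 17.0 CPM at T1, 24.3, 17.5, 25.1 and 26.0 CPM at T2, and 8.47 and 4.58 CPM at T3. Both were lower at T3 than in any T2 oocyte, and both overlapped with T1.1. HSF2, a heat shock factor needed in gametogenesis, had 0, 0, 60.5, 7.76 and 154 CPM at T1, 6.54, 4.21, 2.51 and 8.35 CPM at T2, and 0 and 0.38 CPM at T3. Its T1 mean of 3.27 ± 3.34 rested on T1.3 and T1.6.

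Ribosome biogenesis gave 7 members (EMG1, DNAJC21, NOC3L, WDR74, MYBBP1A, CCDC86 and GNL1), and the median of T3 minus T1 over the 22 symbols of the list with the T1 minimum was -0.77, beside -0.27 over all 1008. DNAJC21 (ENSBTAG00000015648), a co-chaperone of the maturing large ribosomal subunit, had 69.1, 23.6, 74.8, 61.9 and 116 CPM at T1, 116, 254, 202 and 157 CPM at T2, and 23.6 and 1.53 CPM at T3. It was higher at T2 than at T1 by 1.49 and lower at T3 than at T2 by 4.48 on the log2 scale. NOC3L, a nucleolar protein of the same pathway, had 80.3, 29.5, 49.9, 93.6 and 80.0 CPM at T1, 50.4, 52.2, 85.3 and 54.3 CPM at T2, and 46.6 and 3.06 CPM at T3, so that only T3.4 was outside the range of the others.

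Translation factors and tRNA enzymes gave 6 members (EIF3L, EIF6, DUS1L, TRMT1, TRPT1 and WARS1), with a list median of -0.92 over 19 symbols. EIF3L (ENSBTAG00000010790), a subunit of the initiation factor that binds the small ribosomal subunit, had 121, 274, 140, 110 and 102 CPM at T1, 403, 136, 115 and 96.5 CPM at T2, and 80.8 and 23.3 CPM at T3, below all others. EIF6, which keeps the ribosomal subunits apart, had 9.22, 28.3, 54.4, 15.3 and 29.1 CPM at T1, 0.93, 16.5, 16.3 and 27.4 CPM at T2, and 12.7 and 0 CPM at T3. DUS1L, a dihydrouridine synthase of tRNA, had 4.61, 23.3, 25.3, 70.5 and 17.0 CPM at T1, 5.60, 9.82, 8.78 and 12.5 CPM at T2, and 9.88 and 1.53 CPM at T3. EIF6 and DUS1L overlapped with T1 and T2 through T3.2.

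RNA polymerase II transcription and pre-mRNA processing gave 13 members of 45 symbols, with a list median of -0.18. They hold factors of the transcribing polymerase and Mediator (MED13, PAF1, INTS11, NONO), of splicing (AQR, PTBP2, PUF60, CTNNBL1, DNAJC17, USB1, PPP1R8), of capping (CMTR2) and of 3′ end cleavage (CSTF2). PTBP2 (ENSBTAG00000008809), a repressor of splicing, was even across T1 and T2, with 88.1, 105, 86.9, 141 and 90.9 CPM at T1 and 87.8, 106, 94.7 and 110 CPM at T2. It had 63.5 and 5.73 CPM at T3, below each of the 9, although T3.2 was near them. AQR, a helicase of the spliceosome, had 63.6, 30.7, 90.7, 83.6 and 112 CPM at T1, 166, 159, 140 and 101 CPM at T2, and 49.7 and 8.79 CPM at T3. MED13, of the kinase module of Mediator, had 77.2, 0.61, 89.2, 91.3 and 149 CPM at T1, 141, 161, 80.3 and 111 CPM at T2, and 72.3 and 0 CPM at T3. T3.2 overlapped with T1 for both. T1.2 was nearly without MED13, and T3.2 was above the T1 mean of MED13 by 0.75, so that its place among the 192 rested on T3.4.

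Chromatin regulators gave 10 members (KAT8, SUV39H1, SETD2, PRMT5, PRMT7, MSL1, BANP, DMAP1, CHD7 and MORC3) of 56 symbols, with a list median of -0.26. BANP (ENSBTAG00000023745), which binds unmethylated CpG islands, had 15.8, 25.8, 101, 97.4 and 52.1 CPM at T1, 148, 49.4, 48.3 and 41.3 CPM at T2, and 13.8 and 13.0 CPM at T3, where the pair was close together and below all others. CHD7, a remodeller of nucleosomes, had 41.2, 46.4, 20.4, 23.5 and 27.9 CPM at T1, 28.0, 15.4, 35.7 and 19.9 CPM at T2, and 16.2 and 4.97 CPM at T3, where T3.2 overlapped with T2. MORC3, a nuclear ATPase that binds methylated histone H3, had 341, 0, 159, 20.0 and 160 CPM at T1, 215, 173, 245 and 169 CPM at T2, and 68.8 and 2.29 CPM at T3. MORC3 was the gene with the largest difference of T2 from T1 among the 192, at 2.14, its T1 oocytes ran from 0 to 341 CPM, and T3.2 was above the T1 mean by 0.63.

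DNA repair and replication gave 10 members of 49 symbols, with a list median of -0.43, among them MAD2L2, FAAP24, MCM5, MCM8, RAD52, RAD9A, POLM, DDB2 and NTHL1. MCM8 is known for meiotic recombination. MAD2L2, a subunit of the translesion polymerase zeta, had 40.6, 129, 253, 417 and 307 CPM at T1, 128, 102, 159 and 179 CPM at T2, and 24.0 and 118 CPM at T3. FAAP24, of the Fanconi anaemia core complex, had 41.2, 22.1, 195, 33.7 and 95.8 CPM at T1, 6.54, 44.5, 37.0 and 33.9 CPM at T2, and 14.1 and 21.8 CPM at T3. In both the T3 pair overlapped with other oocytes, in MAD2L2 with T1 and T2 through T3.4 and in FAAP24 with T2.1.

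The ubiquitin and SUMO pathway gave 12 members of 45 symbols, with a list median of -0.68, after symbols that begin with UBE2, USP, FBXO or CUL had been set aside. Most are ligases or their adaptors (ZNRF2, LTN1, RNF25, DTX2, TRAF2, TRAF6, UBR3, KLHL5 and KLHL25), and CYLD and SENP1 are proteases that take off ubiquitin and SUMO. ZNRF2 (ENSBTAG00000000260), a membrane-bound ligase, had 372, 100, 294, 226 and 256 CPM at T1, 422, 521, 494 and 417 CPM at T2, and 119 and 44.7 CPM at T3. SENP1 had 192, 52.2, 49.5, 43.7 and 88.5 CPM at T1, 53.2, 118, 80.9 and 67.7 CPM at T2, and 84.7 and 2.29 CPM at T3. LTN1, a ligase that acts on nascent chains of stalled ribosomes, had 243, 11.7, 69.9, 31.7 and 108 CPM at T1, 155, 197, 208 and 315 CPM at T2, and 69.1 and 4.58 CPM at T3. ZNRF2 and LTN1 were lower at T3 than in any T2 oocyte, and SENP1 was so in T3.4 alone. T3.2 was above the T1 mean of SENP1 by 0.23 and of LTN1 by 0.22.

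Membrane and vesicle trafficking gave 16 members of 80 symbols, a share of 20.0% beside 19.0% over all 1008, with a list median of -0.25. They include subunits of tethering complexes of endosomes and the Golgi (VPS50, VPS51, VPS16 and COG3), clathrin adaptors (AP1G2 and AP1M2) and the clathrin-binding HIP1. SNX16 (ENSBTAG00000019639), a sorting nexin of endosomes, had 468, 133, 89.9, 184 and 144 CPM at T1, 264, 424, 362 and 295 CPM at T2, and 278 and 9.55 CPM at T3. VPS50 had 289, 50.7, 167, 123 and 176 CPM at T1, 157, 394, 282 and 184 CPM at T2, and 16.9 and 120 CPM at T3. The T3 oocytes were thus unlike each other, with T3.4 low for SNX16 and T3.2 low for VPS50, and T3.2 was above the T1 mean of SNX16 by 0.69. NBEAL1, of the BEACH domain family, had 188, 6.76, 149, 27.4 and 198 CPM at T1, 146, 126, 142 and 158 CPM at T2, and 6.70 and 10.7 CPM at T3. Here both T3 oocytes were far below T2, and T1.2 was as low as they were.

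Kinase, GTPase and receptor signalling gave 8 members of 80 symbols, with a list median of -0.19. JAG1 (ENSBTAG00000012817), a Notch ligand that oocytes make and that signals to granulosa cells, had the highest T1 mean of the 192 genes. It had 1051, 218, 1761, 147 and 897 CPM at T1, 388, 992, 1302 and 947 CPM at T2, and 140 and 180 CPM at T3. The T3 mean of CPM was 5.09-fold lower than that of T1, all 4 T2 oocytes were above T3, and T1.5 at 147 CPM overlapped with the pair. PRKD3 (ENSBTAG00000001114), a protein kinase of the D family, had 114, 46.4, 47.6, 47.2 and 98.2 CPM at T1, 62.6, 71.9, 103 and 64.9 CPM at T2, and 21.2 and 0.76 CPM at T3, below all others. DLG1, a scaffold of cell polarity, had 143, 33.5, 115, 57.6 and 161 CPM at T1, 154, 114, 151 and 172 CPM at T2, and 50.4 and 15.7 CPM at T3, below T2 and above T1.2 in T3.2.

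Solute carriers and ion channels gave 8 members of 27 symbols, with a list median of -0.90. Of these, SLC7A2, SLC1A5, SLC3A2 and SLC38A8 belong to amino acid transport, SLC2A8 to sugar and SLC19A3 to thiamine transport. SLC7A2, a carrier of cationic amino acids, had 51.5, 24.6, 19.3, 73.3 and 38.8 CPM at T1, 67.2, 36.5, 27.0 and 31.1 CPM at T2, and 16.6 and 6.11 CPM at T3. SLC1A5 (ENSBTAG00000013577), a carrier of glutamine and other neutral amino acids, had 19.0, 35.9, 90.7, 87.6 and 49.7 CPM at T1, 65.4, 50.5, 46.4 and 51.9 CPM at T2, and 7.06 and 26.0 CPM at T3. P2RX1, an ion channel opened by ATP, had 16.7, 29.2, 18.1, 72.7 and 38.8 CPM at T1, 43.9, 23.8, 37.0 and 39.4 CPM at T2, and 3.53 and 6.88 CPM at T3. For SLC7A2 and P2RX1 both T3 oocytes were below all others, and for SLC1A5 T3.4 was above T1.1.

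Lipid and sterol metabolism gave 6 members (LPCAT3, LPCAT4, ABHD6, NR1H2, CYP51A1 and TM7SF2) of 21 symbols, with a list median of -0.76. CYP51A1 and TM7SF2 are enzymes of cholesterol synthesis and NR1H2 is an oxysterol receptor. LPCAT3 (ENSBTAG00000013127), which puts polyunsaturated chains on phospholipids, had 10.4, 8.91, 44.2, 63.3 and 69.1 CPM at T1, 5.60, 25.2, 23.2 and 35.2 CPM at T2, and 0 and 28.7 CPM at T3. NR1H2 had 3.46, 10.7, 38.9, 81.7 and 20.6 CPM at T1, 120, 24.2, 27.0 and 28.8 CPM at T2, and 3.88 and 9.17 CPM at T3. ABHD6, a monoacylglycerol lipase, had 11.2, 20.3, 12.5, 17.96 and 21.8 CPM at T1, 27.1, 22.4, 18.2 and 14.4 CPM at T2, and 6.35 and 3.44 CPM at T3. Of the 3 only ABHD6 was without overlap, and it also had the smallest spread of them at T1, 4.11 ± 0.40.

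Mitochondrial genes as a list did not lie low at T3, with a median of T3 minus T1 of 0.55 over 67 symbols, and 6 of them were among the 192. NDUFA4L2 (ENSBTAG00000031503), a paralogue of a respiratory chain subunit, had 10.4, 36.5, 101, 134 and 38.8 CPM at T1, 47.6, 44.2, 37.6 and 56.6 CPM at T2, and 10.6 and 16.8 CPM at T3. TMEM223, of the inner mitochondrial membrane, had 17.6, 7.98, 23.1, 87.0 and 26.7 CPM at T1, 8.40, 6.66, 19.4 and 14.8 CPM at T2, and 4.94 and 0.38 CPM at T3. For both genes the T3 pair was below each T2 oocyte, while NDUFA4L2 was as low in T1.1 as in T3.2.

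The endoplasmic reticulum list gave 6 members of 39 symbols, with a list median of -0.21, among them PGAP1, FKBP7, REEP3, POMT1 and P4HA2. PGAP1 (ENSBTAG00000020416), which remodels glycosylphosphatidylinositol anchors, had 128, 52.8, 24.9, 94.996 and 116 CPM at T1, 145, 204, 107 and 149 CPM at T2, and 56.4 and 0 CPM at T3. FKBP7, a prolyl isomerase, had 127, 23.3, 67.6, 4.29 and 32.7 CPM at T1, 38.3, 54.7, 27.6 and 38.0 CPM at T2, and 39.5 and 0.38 CPM at T3. REEP3, which keeps the reticulum off the mitotic chromosomes, had 29.1, 11.1, 26.5, 22.9 and 30.3 CPM at T1, 11.2, 6.31, 11.9 and 22.3 CPM at T2, and 8.47 and 4.97 CPM at T3. T3.2 was within the range of T1 for PGAP1 and FKBP7, and above the T1 mean of FKBP7 by 0.30. For REEP3 the T3 pair was below all T1 oocytes and T3.2 overlapped with T2.

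**Figure D4:**
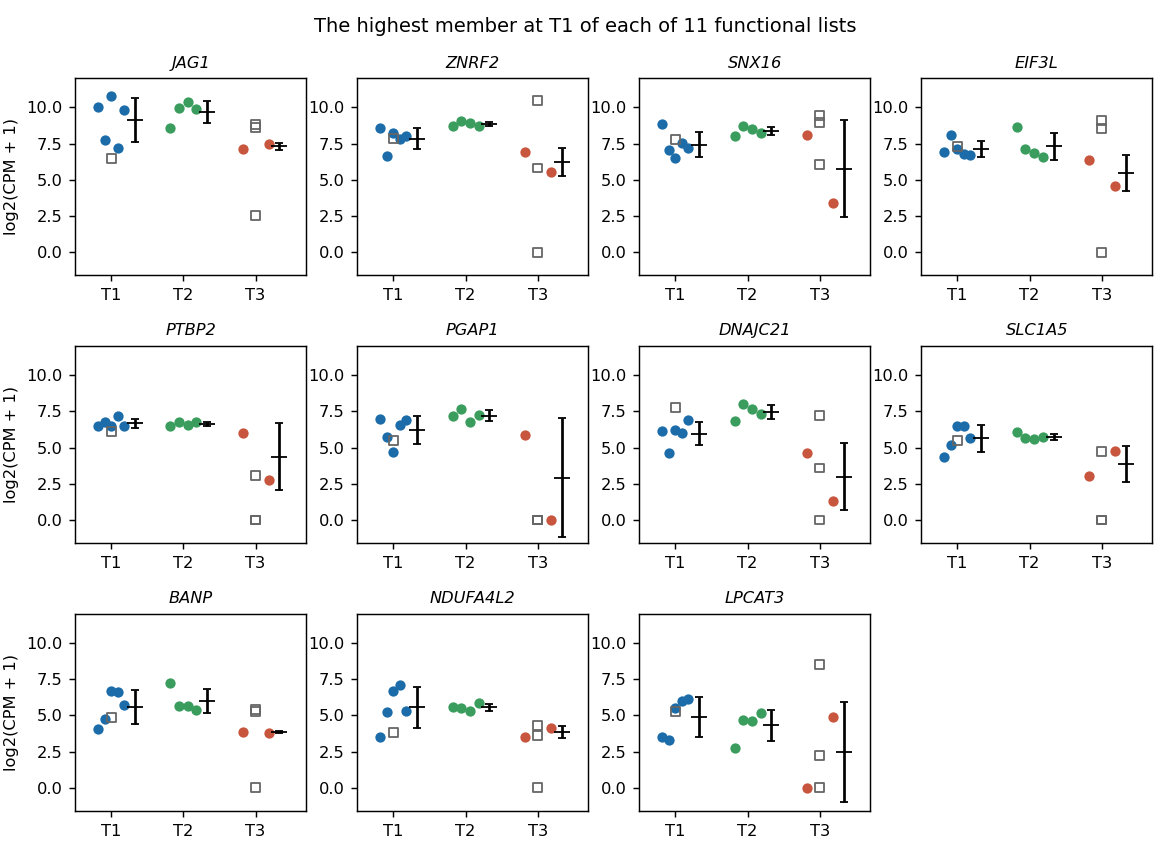
Level as log2(CPM+1) on the y axis by time point on the x axis for 11 genes, each the member with the highest T1 mean in its list. Filled points are the 11 oocytes used by the rule, black bars their mean ± SD, and open squares the 4 oocytes left out. The 2 filled T3 points are close together in JAG1 (140 and 180 CPM) and BANP (13.8 and 13.0 CPM) and far apart in SNX16 (278 and 9.55 CPM) and PGAP1 (56.4 and 0 CPM).

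The lists with fewer than 5 members held DMD, DBNL, FERMT3 and NECTIN3 of the actin cytoskeleton and cell junctions, MXD1, NRF1, TSC22D1 and USF1 of the circadian and stress-response factors, PLK1, DCTN2 and TEDC2 of the centrosome and spindle, and PCID2 of mRNA decay and storage. Of the genes in no list, GAPDH and SRGN are named here after their values were seen. GAPDH, a glycolytic enzyme, had 19.9, 81.1, 409, 177 and 362 CPM at T1, 28.0, 50.8, 47.7 and 79.8 CPM at T2, and 23.6 and 22.5 CPM at T3, and overlapped with T1.1. SRGN, a proteoglycan of blood cell granules and 1 of the 3 leukocyte markers that could be named, had 1100, 74.6, 273, 13.1 and 407 CPM at T1, 8.40, 30.2, 37.0 and 607 CPM at T2, and 115 and 1.53 CPM at T3, with a wide spread at all time points. The other leukocyte markers, CSF1R and PTPRCAP, reached at most 44.7 and 6.05 CPM in the 11 oocytes.

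The limit of the rule lay in a continuous range of differences. Just inside it were VPS16 at -1.51, AS3MT at -1.51 and COG3 at -1.53 (T3 minus T1). VPS16 had 16.7, 0, 15.9, 37.8 and 25.5 CPM at T1, 30.8, 10.5, 17.6 and 12.5 CPM at T2, and 5.64 and 1.91 CPM at T3. AS3MT, an arsenic methyltransferase, had 17.9, 18.7, 19.3, 34.3 and 52.1 CPM at T1, 7.47, 19.3, 34.5 and 32.9 CPM at T2, and 1.06 and 42.4 CPM at T3. COG3 had 59.6, 1.54, 59.0, 3.47 and 32.7 CPM at T1, 76.6, 41.0, 59.6 and 65.9 CPM at T2, and 33.5 and 0 CPM at T3. In AS3MT and COG3 a single T3 oocyte brought the mean under the limit, with T3.4 above the T1 mean of AS3MT by 0.69 and T3.2 above that of COG3 by 1.03. Just outside it were HDAC3 at -1.49, ATP5F1B at -1.48 and BIN2 at -1.48.

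The 4 oocytes that the study left out are the only samples at T1 and T3 that the rule did not use. In T1.4, the 24 h oocyte among them, the genes were also low. The median over the 192 genes of T1.4 minus the mean of the listed T1 oocytes was -1.78, beside -0.61 over all genes with the T1 minimum, but the listed T1 mean was used by the rule. Against the same mean, T3.1 was at -3.25 (all genes -2.13), T3.3 at -1.02 (all genes -1.28) and T3.5 at -3.88 (all genes -3.90). The 192 genes were thus lower than all genes in T1.4 and T3.1, close to them in T3.5 and higher in T3.3. T1.4 was 1.5 or more below that mean for 103 of the genes and had no count for 57. Its total of 2874041 counts was close to those of T3.2 and T3.4, and oxidative phosphorylation subunits took 4.65% of it. The part of this in the low levels was not tested.

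Within the 4 oocytes, the comparison of T3 with T1 rests on the single oocyte T1.4. The 57 genes without a count there could not be lower at T3. The median of log2(CPM+1) in T1.4 was 2.64 over the 192 genes and 4.98 over all genes with the T1 minimum. The 192 genes thus had less room to be lower, so that the comparisons with all genes below are not like for like. The median of the T3 mean (T3.1, T3.3 and T3.5) minus T1.4 was -0.41 over the 192 genes, -1.16 over all genes with the T1 minimum and -1.28 over the other named genes. By oocyte it was -0.21 in T3.1 (all genes -0.62), 0.44 in T3.3 (all genes -0.14) and -1.26 in T3.5 (all genes -2.05). All 3 T3 oocytes were below T1.4 for 47 of the 192 genes, which is 24.5% and compares with 32.3% of all genes with the T1 minimum, and all 3 were above it for 6. Depth limits this comparison, since a count of 0 allows up to 4.83, 11.0 and 17.1 CPM in T3.1, T3.3 and T3.5, and T3.5 had no count for 153 of the genes.

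With all 15 oocytes in the means, the value of T3 minus T1 moved by over 1.5 times for a part of the genes described above, in both directions. It was nearer to 0 for ENDOG (-2.45), PIK3CB (-1.92), LIN9 (-0.34), GOT1 (-2.34), TRMT1 (-2.55), HSF2 (-1.58), P2RX1 (-0.90), FKBP7 (-1.20), DUS1L (-1.26), SNX16 (-0.29), NR1H2 (-0.39) and COG3 (-0.998). It was farther from 0 for PGAP1 (-4.90), PTBP2 (-4.21), NOC3L (-3.93), SLC1A5 (-3.11), AQR (-2.91), REEP3 (-2.64), FAAP24 (-3.23), VPS50 (-2.63), DLG1 (-3.07) and MORC3 (-3.29).

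**Figure D5:**
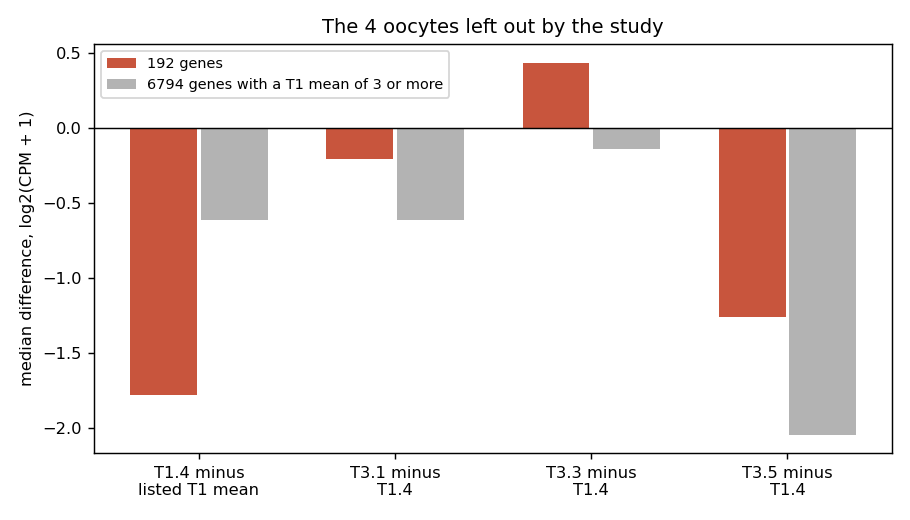
Median difference in log2(CPM+1) on the y axis for the 192 genes (red) and for 6794 genes with a T1 mean of 3 or more (grey), with the 4 oocytes left out on the x axis. Against T1.4 the red bars of T3.1, T3.3 and T3.5 stand at -0.21, 0.44 and -1.26, each above its grey bar, while T1.4 itself stands at -1.78 against the listed T1 mean.

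The quasi-likelihood test of edgeR on these 4 oocytes, with the lone T1.4 assumed to vary like the 3 T3 oocytes, called 0 of 5759 genes (0%). With 1 oocyte at T1 and between 175263 and 620910 counts in the T3 oocytes, neither this count nor those that follow show whether T3 and T1 differ. At an unadjusted p under 0.05 it had 42 genes (0.729%), none of them among the 98 of the 192 that passed the filter on low counts. The likelihood ratio test called 0 genes. DESeq2 called 75 genes of 9331 (0.804%), all higher at T3, with COG3 and TSC22D1 among them. The direction in single genes was mixed. PTBP2 had 68.2 CPM in T1.4 and 0, 7.36 and 0 CPM in T3.1, T3.3 and T3.5, and PGAP1 had 44.5 CPM and no count in the 3 others. JAG1 had 87.7 CPM in T1.4 and 4.83, 386 and 445 CPM in the 3 others, and ENDOG had 0 CPM in T1.4 and 14.5, 14.7 and 0 CPM. LIN9 had 0.35 CPM in T1.4 and 101, 423 and 0 CPM, although it had no count in T3.2 and T3.4. Of the 10 genes with the largest difference, only FERMT3 was lower in all 3 of these T3 oocytes than in T1.4, with 19.5 CPM in T1.4 and 3.22, 14.7 and 0 CPM in the others.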

How the data were processed

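Single-cell RNA-seq libraries (Smart-seq2, oligo-dT primed, without molecular identifiers) of 15 bovine DF oocytes were used. Per the submitters' processing notes, adapters were removed by Trim Galore 0.6.6. Alignment was by HISAT2 on ARS-UCD1.2, and the values that the authors deposited are unnormalised SeqMonk counts for each Ensembl gene. The annotation release, strandedness and removal of duplicates are not given in the sources used here, so that overlapping genes and close paralogues may share reads.

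CPM was computed by the column sum, as log2(CPM+1), in Python 3.11.15 with pandas 2.3.3 and numpy 2.4.6. Total counts were 175263 to 4894970, and a count of 0 was read as up to 3 counts. Tests were the quasi-likelihood F-test of edgeR 4.0.16 (TMM, filterByExpr, 3 time points in 1 fit, R 4.3.3), called at a Benjamini-Hochberg adjusted p of 0.05 and a log2 fold change of 1.5. Each oocyte came from another animal, so p-values rest on the spread between animals. The scripts were tested on simulated data.

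The members and lists were chosen with earlier results of these data known. Genes named are all members of the germline list, the 3 members with the highest T1 mean in each other list of 5 or more, the 10 largest differences, and the 3 genes nearest to each side of the limit. Some genes that this names are not reported here. Alternatives were pseudocounts of 0.5 and 5, TMM, RLE and upper-quartile factors, thinning, all 15 oocytes, DESeq2 1.42.0, the likelihood ratio test, no filter, a replicate block and each oocyte left out. Sequence features planned for these genes were not analysed here, and figures were drawn with matplotlib 3.10.9.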

Additional observations from a re-analysis of the deposited data

Results flagged for a closer look

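In 11 of 104 groups of 4 or 5 oocytes, 1 oocyte stood apart from the others by Dixon's ratio (limits of 0.829 for 4 oocytes and 0.71 for 5), where chance alone gives about 1 in 20 for independent, normally distributed values. CPM values and counts of genes at 0 are skewed and the oocytes are shared between genes, so the number is not read against that rate. T2.1 accounted for 5 of them. It had 87.8 CPM of FERMT3 (other T2 oocytes 20.1 to 25.5), 148 CPM of BANP (41.3 to 49.4), 403 CPM of EIF3L (96.5 to 136) and 120 CPM of NR1H2 (24.2 to 28.8). It also had no count for 5 of the 192 genes where the others had counts for all.

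T1.2 had no count for 24 of the 192 genes (other T1 oocytes 0 to 6) and 274 CPM of EIF3L (102 to 140). T1.1 had 468 CPM of SNX16 (89.9 to 184), and T1.5 had 87.0 CPM of TMEM223 (7.98 to 26.7). T2.3 had 85.3 CPM of NOC3L (50.4 to 54.3), and T2.4 had 37.6 CPM of NLRP13 (20.5 to 23.2).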

How the results depend on the processing

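The rule gave 192 genes as stated, 99 with a pseudocount of 5 (97 of them among the 192), 403 with all 15 oocytes (124 among the 192), and 157 to 277 with 1 oocyte left out, the highest without T1.2. With all 15 oocytes the median over members of T3 minus T1 was -2.15 beside -1.33 over all genes, and that of T3 minus T2 -2.30 beside -1.58, so that the distance to all genes was smaller than with the 11. With a pseudocount of 5 the median of T3 minus T1 was -1.504 and that of T3 minus T2 -1.39. With 1 oocyte left out, T3 minus T1 ran from -3.11 (without T3.2) to -1.93 (without T3.4), T3 minus T2 from -2.97 to -1.92, T2 minus T1 from -0.25 to 0.05, and the difference within the oocytes left out by the study from -0.62 to 0. This last difference, -0.41 as stated, was 0 when thinned to the shallowest of the 4 oocytes (all genes -1.09). It was 0 with a pseudocount of 5 (all genes -0.58) and -0.75 with 0.5 (all genes -1.42). With TMM factors it was -0.71 (all genes -1.57), and with RLE factors -0.28 (all genes -0.98). In 8 named genes the sign of T3 minus T1 turned when a T3 oocyte was left out. Without T3.2 and without T3.4, AS3MT was at 0.69 and -3.71, MED13 at -5.45 and 0.75, FKBP7 at -4.57 and 0.30, SENP1 at -4.47 and 0.23, SNX16 at -4.03 and 0.69, LTN1 at -3.43 and 0.22, MORC3 at -3.77 and 0.63, and COG3 at -4.08 and 1.03. The cause was not tested, beyond the loss of an oocyte in the fits that leave 1 out.

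Members called by the edgeR quasi-likelihood test were 0 in each comparison. For T3 minus T1 they were 26 with the likelihood ratio test, 52 with DESeq2 and 0 to 3 with 1 oocyte left out (3 without T1.2, where 15 genes were called in all). For T3 minus T2 they were 33 with the likelihood ratio test, 50 with DESeq2, 1 of 17 genes called with RLE factors (ENDOG), 15 of 371 without a filter, and 0 to 22 with 1 oocyte left out (22 of 403 without T1.2, 13 of 316 without T1.1, 3 of 94 without T3.2). For T2 minus T1 they were 0 with the likelihood ratio test, 1 with DESeq2 and 0 to 1 with 1 oocyte left out, in each case GAPDH (376 genes in all without T1.1). For the oocytes left out by the study DESeq2 called 2. Over all genes, the quasi-likelihood test called 0, the likelihood ratio test 139, 701 and 361 and DESeq2 349, 912 and 469 for T3 minus T1, T3 minus T2 and T2 minus T1. With the replicate number as a block, 0 members were called in each comparison. The numbers do not pair the oocytes, which came from different animals. The count of genes with both T3 oocytes below all others, whose alternatives were chosen after seeing the data, was 61 to 119 with 1 oocyte left out (119 without T3.2, 92 without T3.4).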
